A study of Mus musculus with 18 samples.

Results

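Nr2f1 encodes COUP-TFI, an orphan nuclear receptor of the COUP transcription factor family, and it was measured along the rostrocaudal axis of the embryonic mouse neocortex. All probes annotated to Nr2f1 alone were taken, which gave 2 of the 21998 probes on the array, for 1 of the 13379 genes tested. Both had a value on all 18 arrays and are called probe 1 (CG_Mm_3001348_1) and probe 2 (CG_Mm_EXT_3105699_1) here. Total RNA came from neocortex of MF1 mice, an outbred stock, at E13.5. There were 3 rostral, 3 middle and 3 caudal pools (R1 to R3, M1 to M3 and C1 to C3), and the tissue of all 9 came from 4 embryos. Pools of different regions were hybridised against each other in Cy3 and Cy5, each pool on 4 arrays and each pair of regions on 6. The labels name neither a genotype nor a treatment, and no map from embryos to pools is given, so a p-value here reflects how far pools of a region vary, and that variation may be technical.

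COUP-TFI binds DNA as a dimer, often at direct repeats of AGGTCA, and mostly represses transcription. In mouse cortex it is made in progenitors and young neurons in a gradient, high caudally and laterally and low rostrally. It limits the frontal and motor areas, while FGF signalling from the rostral midline works in the opposite direction. Loss of the gene in mouse cortex is known to enlarge the motor territory at the expense of sensory areas.

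The reference places Nr2f1 on the minus strand of chromosome 13 at 78188971 to 78198873 (RefSeq, GRCm38.p6). The window of 250 bases just upstream of its start, chr13:78198874-78199123, is shown to locate the gene whose transcript was measured. It is written 5′ to 3′ on the minus strand, from RefSeq, with CpG dinucleotides in capitals.
Nr2f1: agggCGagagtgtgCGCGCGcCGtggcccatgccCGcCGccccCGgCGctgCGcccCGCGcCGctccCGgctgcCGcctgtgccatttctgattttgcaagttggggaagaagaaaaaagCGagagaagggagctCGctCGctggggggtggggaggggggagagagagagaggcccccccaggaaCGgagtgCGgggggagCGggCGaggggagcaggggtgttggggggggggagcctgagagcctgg
The window was 72% G or C and held 22 CpGs, and 93.1% of 32851 mouse windows of this length had a lower G and C share. The table holds another start of Nr2f1, inside the gene, whose window (chr13:78196450-78196699) was 39.6% G or C with 2 CpGs, and 11.01% of windows were lower. The receptor recognition element AGGTCA, searched on both strands, was in neither window, and 14.02% of all windows held it. The GC box GGGCGG occurred 1 time in the first window and was present in 32.74% of all windows, again on both strands. The first window lies inside A830082K12Rik, a noncoding RNA gene that overlaps Nr2f1 by 857 bases and was not analysed here.

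Nr2f1 was graded across the 3 regions, lowest in rostral, between the ends in middle and highest in caudal neocortex, by both probes. A pool's value is its log2 level relative to the mean of the 9 pools. After each array's median was set to 0, the 9 values and a dye effect were estimated together per probe, by least squares over all 18 arrays. The values of pools that share arrays are therefore not separate measurements. With probe 1 the rostral pools were at -0.51 (R1), -0.46 (R2) and -0.69 (R3), the middle pools at 0.07, 0.04 and 0.13 (M1 to M3), and the caudal pools at 0.45, 0.45 and 0.51 (C1 to C3). No 2 regions overlapped with this probe. Every rostral value was lower than every middle value, and every middle value lower than every caudal one, a pattern that 75 of 18525 features showed (0.405%). Probe 2 gave -0.17, -0.49 and -0.74 in the rostral, -0.26, -0.04 and 0.02 in the middle, and 0.52, 0.79 and 0.36 in the caudal pools, in the same order. Here R1 lay above M1, so the rostral and middle pools overlapped, and the caudal pools stood above all others. The rostral pools were all below the caudal pools with both probes, which held for 1092 of the 18525 features (5.89%).

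**Figure D1:**
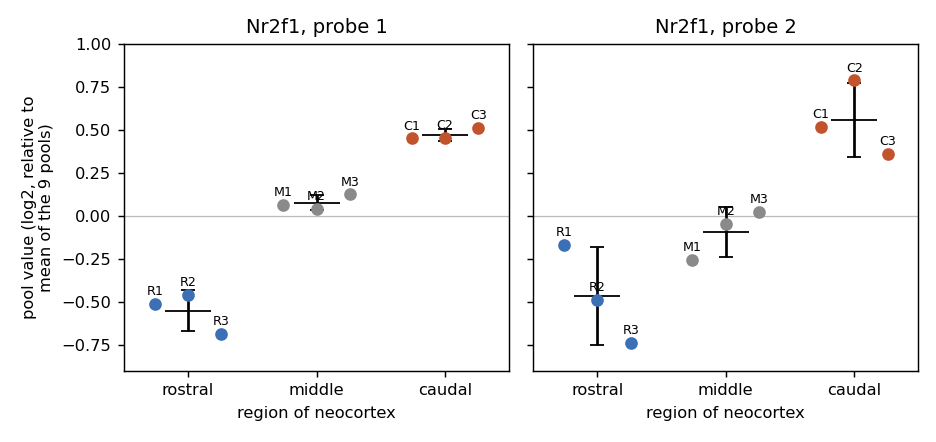
Nr2f1 in the 9 pools of E13.5 neocortex, probe 1 on the left and probe 2 on the right: points are single pools, the long bar is the mean of 3 pools and the whisker 1 SD, in log2 units relative to the mean of the 9 pools. With probe 1 the 3 regions do not overlap, whereas with probe 2 the rostral pool R1 (-0.17) lies above the middle pool M1 (-0.26).

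Between the ends, probe 1 averaged -0.55 ± 0.12 in rostral and 0.47 ± 0.04 in caudal pools (SD, n = 3 each), and probe 2 averaged -0.46 ± 0.29 and 0.56 ± 0.22 in the same order. The rostral minus caudal difference of probe 1 had a 95% interval of -1.19 to -0.86. It ranked first of the 18525 features by p (limma adjusted p = 0.0138), of which 12 passed (0.0648%), 3 of them lower in rostral (0.0162%), while 1464 (7.90%) had an unadjusted p under 0.05. All 12 calls were lost without centring, with Gapdh spots as a covariate and with each of 3 blocks, where the adjusted p of probe 1 was 0.0587, 0.0620, 0.164, 0.161 and 0.160. The call held without middle replicate 1, and was lost with any of the other 8 pools left out, where the difference lay between -1.06 and -0.97 (limma adjusted p between 0.0523 and 0.211). The gene had been brought forward with this result known, so the call is a description and not a separate test. Probe 2 gave the same difference (-1.02 ± 0.17, SE, 95% interval -1.42 to -0.62) with a wider spread between pools, and it did not pass (limma adjusted p = 0.150). By size alone the probes were 119th and 120th among the lowest differences, so the rank of probe 1 by p rests on its small spread between pools (SD 0.0764, against 0.223 for probe 2). These are ratios of pooled tissue, so fewer cells that contain the transcript and less transcript per cell cannot be told apart.

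The middle region was set against each end to ask where along the axis the level changes. Rostral minus middle was -0.63 ± 0.07 (SE) with probe 1 and -0.37 ± 0.17 with probe 2, that is 1.55-fold and 1.29-fold lower in rostral pools. Middle minus caudal was -0.39 ± 0.07 with probe 1 and -0.65 ± 0.17 with probe 2, or 1.31-fold and 1.57-fold lower in middle pools. Probe 1 thus placed 61.5% of the fall between the ends on the rostral side and probe 2 placed 36.5% there. In both neighbouring comparisons 0 of the 18525 features passed limma's test (0%), while 973 and 901 had an unadjusted p under 0.05, and probe 1 had adjusted values of 0.280 and 0.394 and probe 2 of 0.951 and 0.585. The 95% interval of probe 2 for rostral minus middle ran from -0.77 to 0.03, and those of the other 3 steps excluded 0.

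Whether the steps on either side of the middle differ in size was not settled. Middle minus the mean of the ends was 0.12 ± 0.06 (SE) for probe 1 and -0.14 ± 0.15 for probe 2 (limma adjusted p = 0.99995 for both), which does not show that the steps are equal. The probes' disagreement on the middle region, probe 1 minus probe 2 in middle pools relative to the end pools, was 0.26, and an exact permutation test of the 3 middle pools against the other 6 gave p = 0.119 (84 assignments, two-sided). The order of the regions itself was tested over all 9 pools: the level rose by 0.51 per step toward caudal with each probe. Exact two-sided permutation gave p = 0.00119 for probe 1, the smallest that 1680 assignments allow, and p = 0.00238 for probe 2, and both were 0.00238 after adjustment over the 2 probes. The gene was brought forward with its gradient in these pools known, so these p-values too are descriptions and not a separate test. Pools that share arrays are not fully exchangeable, and an exact test of 3 pools against 3 could not have gone below 0.10.

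Each of the 18 arrays is a direct comparison of a pool of one region with a pool of another. On the 6 arrays that held rostral and caudal RNA, the dye-corrected log2 ratio of rostral over caudal ran from -1.07 to -0.79 with probe 1, median -0.96. On the 6 arrays of rostral and middle RNA it ran from -1.01 to -0.44, median -0.64, and on the 6 of middle and caudal RNA from -0.65 to -0.36, median -0.42. All 18 ratios of probe 1 were thus lower in the more rostral pool. For probe 2 the same 3 ranges were -2.64 to -0.28, -0.82 to 0.13 and -0.86 to -0.24, with medians of -0.78, -0.27 and -0.67. Its single ratio above 0 was R3 over M2 on array 8, and before the dye effect was removed all 18 were below 0.

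**Figure D2:**
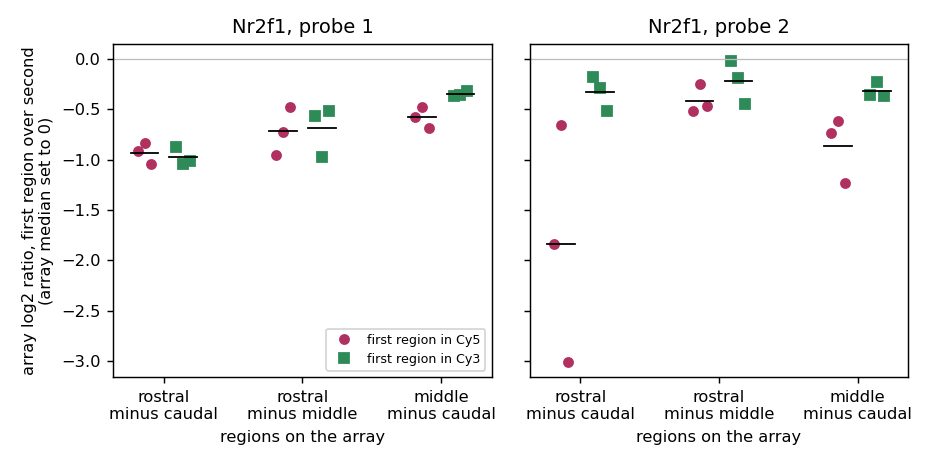
Nr2f1 on the 18 arrays, probe 1 on the left and probe 2 on the right: each point is the log2 ratio of the first named region over the second on a single array, with the array median set to 0 and the dye effect still in, and bars are means of 3 arrays. With probe 1 the dyes give alike values for rostral minus caudal (-0.93 and -0.98), whereas with probe 2 the arrays with the rostral pool in Cy5 average -1.83 and the others -0.33.

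Rostral over caudal was set apart by dye orientation. With rostral RNA in Cy5, rostral over caudal was -0.93 ± 0.11 with probe 1, and with rostral RNA in Cy3 it was -0.98 ± 0.09 (SD, n = 3 arrays each, array medians set to 0). Probe 2 gave -1.83 ± 1.18 and -0.33 ± 0.17 on the same arrays. For middle over caudal the orientations differed with both probes: probe 1 gave -0.58 ± 0.10 with middle RNA in Cy5 and -0.35 ± 0.02 with it in Cy3, and probe 2 gave -0.86 ± 0.33 and -0.32 ± 0.08. Its dye coefficient was -0.37, and 3.27% of the features had a lower one, whereas probe 1 had -0.04. The lowest ratio of probe 2 was on array 17, which paired R3 in Cy5 with C2 in Cy3 and had a deposited log2 value of -2.88. Without array 17 the rostral minus caudal difference of probe 2 was -0.78, against -1.02 with all arrays. The residual SD between arrays was 0.196 for probe 1 and 0.626 for probe 2, against a median of 0.256 over all features.

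Values of an array could also be set against those predicted for it from the other 17. Observed and predicted ratios of probe 1 correlated at r = 0.931 and had the same sign on 18 of 18 arrays, with a root mean square error of 0.277. For probe 2 these were r = 0.505, 15 of 18 arrays and 0.886. The 18 points share pools and dyes, so the correlations are descriptions. Going only through the middle region gave -1.16 for rostral minus caudal with probe 1, beside a mean of -0.95 on the 6 direct arrays, and -0.90 beside -1.08 with probe 2.

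The arrays also fall into 6 sets of 3, each joining 1 rostral, 1 middle and 1 caudal pool with the dyes running round, so that every set gives the whole axis by itself. Probe 1 was lowest in rostral and highest in caudal in 6 of 6 sets. Its rostral minus caudal value lay between -1.13 and -0.84, rostral minus middle between -0.89 and -0.43, and middle minus caudal between -0.65 and -0.24. The set of R2, M1 and C3 had the smallest rostral step and the largest caudal step with this probe. Probe 2 kept the order in 5 of 6 sets, with rostral minus caudal between -2.19 and -0.54. The value of -2.19 came from the set of R3, M1 and C2, which holds array 17, where the log2 ratio of R3 over C2 was -3.01 before dye removal. The exception to the order was again the set of R2, M1 and C3, where rostral minus middle was 0.01 and middle minus caudal -0.76. Each pool belongs to 2 sets, so the sets are not 6 independent replicates.

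**Figure D3:**
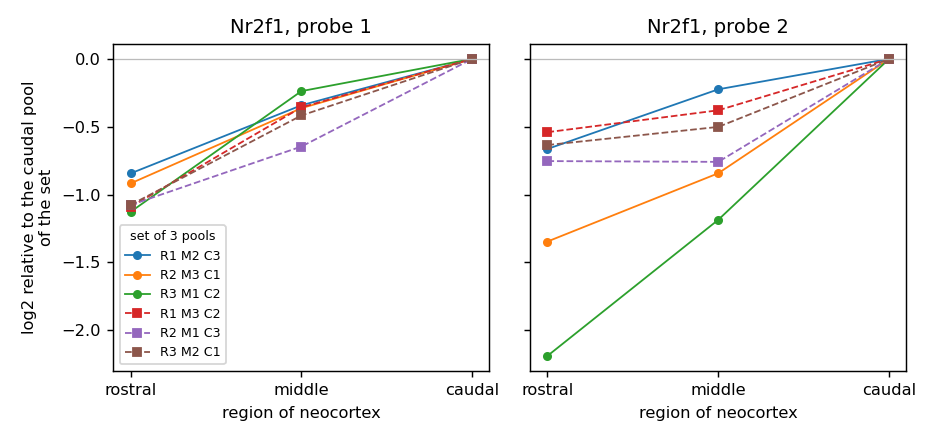
Nr2f1 along the axis in each of the 6 sets of 3 arrays, probe 1 on the left and probe 2 on the right, in log2 units relative to the caudal pool of the set: each line joins 1 rostral, 1 middle and 1 caudal pool, and circles and squares mark the 2 ways of dividing the pools. Probe 1 climbs at both steps in 6 of 6 sets and probe 2 in 5 of 6. The steepest line of probe 2 is the set of R3, M1 and C2 (-2.19), which holds array 17.

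The probes correlated at r = 0.895 over the 9 pools and at r = 0.779 over the 18 arrays, both hybridised from the same RNA on the same arrays. Once the region means were taken out, the correlation over 9 pools was 0.404. R3 was the lowest of the 9 pools with both. The probes' sequences and their positions in the transcript were not used here, so whether either also binds RNA of a related gene or of an overlapping transcript was not tested.

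The direction of all these ratios is likely and not stated, since the numerator of the ratio is not named in the labels. Ratios were read as Cy5 over Cy3, the order of the channels, and Nr2f1 was among the genes whose known gradient had fitted that reading, so its own direction here is not independent evidence. If the ratio ran the other way, every sign would turn and Nr2f1 would be higher in rostral pools. That Nr2f1 and Etv1 ran in opposite directions holds either way.

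Genes next to Nr2f1 on chromosome 13 were described to see whether they differed along the axis too. Of the 5 reference genes on either side, 3 of the 10 had a tested feature. The nearest, the noncoding RNA gene 3110006O06Rik, lies 5997 bases beyond the 3′ end of Nr2f1. Its pools were at 0.29, -0.61 and -0.78 in rostral, -1.06, -0.05 and -0.28 in middle, and 0.94, 0.65 and 0.91 in caudal neocortex. The caudal pools of 3110006O06Rik were all above the others, while rostral and middle pools overlapped. Its rostral minus caudal difference of -1.20 ± 0.34 did not pass (limma adjusted p = 0.361), and it was measured on 16 arrays. Fam172a, whose coordinates end 22730 bases from Nr2f1, had 2 features that differed, one at 0.00 ± 0.13 and one at -1.03 ± 0.23 (limma adjusted p = 0.998 and 0.227). Pou5f2, a POU domain gene, was at 0.15 ± 0.12.

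Genes with the profile most like that of Nr2f1 were found by the correlation of their 9 pool values with the mean of its probes, among 995 features with a rostral minus caudal difference of at least 0.5 in size. Such a filter favours high correlations, and all points share the same pools and arrays, so r is a description. The 8 most alike were Vcam1, a cell adhesion molecule (r = 0.958), Cryab, a small heat shock protein (0.956), Cmtm3 (0.946), the metallothionein Mt1 (0.942), Zcchc12 (0.925), the WNT receptor Fzd7 (0.922), the neuronal calcium sensor Hpca (0.920) and Rbm20, an RNA-binding splicing regulator (0.919). Their rostral minus caudal differences lay between -0.76 (Cryab) and -0.50 (Vcam1), all smaller than that of Nr2f1. Of the 8, 0 passed, with adjusted p from limma between 0.0571 and 0.165. Over all features 0.0162% passed with lower rostral values, so this count does not set the 8 apart. Because the genes were chosen for a graded profile over the same pools, small p-values come with the choice. Cryab was at -0.12, -0.37 and -0.54 in rostral, -0.05, -0.06 and -0.12 in middle, and 0.52, 0.38 and 0.35 in caudal pools. Like probe 2 of Nr2f1, it placed most of its fall on the caudal side. Another probe of Rbm20 had r = -0.02 and a difference of -0.11 ± 0.25, so its likeness rests on a single probe.

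The 8 genes most opposite to Nr2f1 were high where it was low. They were the noncoding RNA Pantr2 (r = -0.979), the ubiquitin ligase gene Rnf180 (-0.975), Pdzph1 (-0.956), the secernin gene Scrn1 (-0.951), the ETS factor gene Etv1 (-0.948), the MAP kinase kinase gene Map2k6 (-0.942), Rnd3 (-0.929) and 4933424G05Rik (-0.928). Of these, 5 passed with higher values in rostral pools: Pantr2, Pdzph1, Scrn1, Etv1 and 4933424G05Rik. Over all features 0.0648% passed in either direction, which includes the 0.0162% with lower rostral values. The 5 genes were chosen for this profile, and their calls were among the 12 lost in the alternatives named for Nr2f1. Pantr2 was at 0.25, 0.43 and 0.44 in rostral, -0.06, 0.04 and -0.04 in middle, and -0.34, -0.38 and -0.34 in caudal pools, without overlap between regions. Among the 8 like and 8 opposite genes, 5 and 7 had upstream windows in the reference table, 7 and 11 in all. AGGTCA was in 1 window of Hpca on the like side and in 1 window of Map2k6 on the opposite side, and each of these genes had 3 windows (14.02% of all windows held it).

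**Figure D4:**
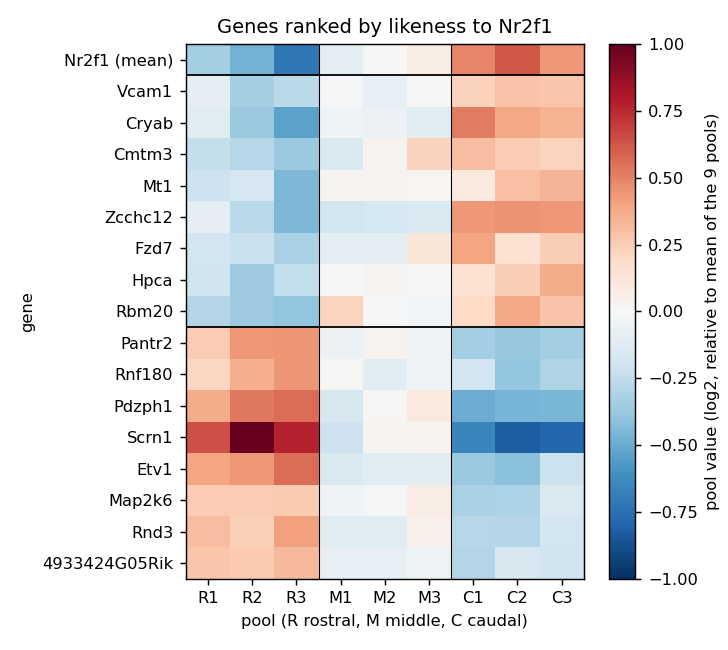
Pool values of the mean of the Nr2f1 probes (top row), the 8 genes most like it and the 8 most opposite to it, in log2 units relative to the mean of the 9 pools; columns are rostral (R), middle (M) and caudal (C) pools and red is higher. The like genes run low to high toward caudal, as Nr2f1 does (r between 0.919 and 0.958), and the opposite genes run the other way.

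Relatives of Nr2f1 in the NR2 receptor family had estimated differences near 0, with unequal precision. Of 6 other members 4 were measured, and their rostral minus caudal differences lay between -0.01 and 0.09. Of these 0 passed limma's test and 0 had an unadjusted p under 0.05, against 0.0648% and 7.90% of all features. Counts over 4 genes say little beside such shares. Nr2e1, the tailless receptor of neural progenitors, was at 0.09 ± 0.09. Nr2f6, the nearest COUP-TF relative measured, was at 0.06 ± 0.30, with rostral pools from -0.36 to 0.79, so a sizeable difference is not excluded. Nr2f2, which encodes COUP-TFII, was not analysed here. Partners and corepressors, among them retinoid receptors and the BCL11 zinc finger proteins that bind COUP-TFs, were measured for 10 of 15 genes. None passed (0 of 10, with 2 at an unadjusted p under 0.05, against 7.90% of all features), and their median difference was -0.01, against 0.00 over all features. Bcl11b, a partner that also marks subcortical projection neurons, was at 0.21 ± 0.05 with one probe and at 0.46 ± 0.08 with another.

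Areal patterning factors had smaller differences than Nr2f1 in these pools. Among the 7 of 15 measured besides Nr2f1, 5 were below 0 and 2 above, with a median of -0.10, and 0 passed limma's test (3 at an unadjusted p under 0.05, against 7.90% of all features). Lhx2, a cortical selector gene, was at -0.14, -0.21 and -0.27 in rostral, 0.01, 0.14 and 0.14 in middle, and 0.02, 0.15 and 0.15 in caudal pools. Its rostral pools stood below all others (rostral minus caudal -0.31 ± 0.07, limma adjusted p = 0.204). Emx2, the homeobox gene known for a gradient that runs the same way as that of Nr2f1, was at -0.25 ± 0.08 (limma adjusted p = 0.427). Fezf2, a factor of deep-layer neurons, was at -0.28 ± 0.05 (0.167) and Pax6, known as high rostrolaterally, at 0.31 ± 0.20 with one probe (0.835) and 0.32 ± 0.07 with the other. Emx1 was at -0.10 ± 0.06, and Sp8 was not analysed here.

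FGF ligands and response genes hold the signal known to oppose Nr2f1. Of 18 genes 16 were measured, 6 below 0 and 10 above, with a median of 0.02, and 1 passed, against 0.0648% of all features. That gene was Etv1, an FGF-responsive factor, at 0.39, 0.43 and 0.56 in rostral, -0.15, -0.12 and -0.11 in middle, and -0.37, -0.42 and -0.21 in caudal pools. Its regions did not overlap, and most of its difference (0.80 ± 0.07, limma adjusted p = 0.0272) lay between rostral and middle pools. Spry2, an FGF feedback inhibitor, was at 0.46 ± 0.06 (limma adjusted p = 0.0619), Etv5 at 0.31 ± 0.09 with one probe and -0.06 ± 0.08 with another, and the receptor gene Fgfr2 at -0.18 ± 0.05. Fgf8, the ligand of the rostral midline, was at -0.08 ± 0.06.

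Genes reported as changed in Nr2f1 mutant cortex were listed to see how they lie along the same axis. Of 20 genes 17 were measured, 8 below 0 and 9 above, with a median of 0.03, and 0 passed limma's test, while 9 had an unadjusted p under 0.05 (7.90% of all features). Crym, a thyroid hormone binding protein, was at -0.10, -0.22 and -0.27 in rostral, -0.06, -0.15 and 0.08 in middle, and 0.24, 0.25 and 0.23 in caudal pools. Its profile correlated with that of Nr2f1 at 0.954 and that of Lmo4, a LIM-only cofactor, at 0.927, but both fell short of the minimum difference of 0.5 (-0.44 ± 0.07 and -0.41 ± 0.08, limma adjusted p = 0.150 and 0.193). Rnd2, a GTPase gene of migrating neurons that Nr2f1 is known to repress, was at 0.26 ± 0.08 and Id2, an inhibitor of basic helix-loop-helix factors, at 0.09 ± 0.07. Genes listed under dorsal midline WNT and BMP signalling were below 0 for 13 of 15 measured, against 49.6% of all features, with a median of -0.06. Of these 0 passed limma's test, and 1 had an unadjusted p under 0.05 (7.90% of all features). Wls, which carries WNT proteins to the cell surface, was at -0.41 ± 0.09 and Wnt7b at -0.24 ± 0.12, whereas Wnt8b was at 0.08 ± 0.07. Wnt8b was not level between the ends: its middle pools, at -0.28, -0.18 and -0.32, lay below all its rostral and caudal pools. Its rostral minus middle and middle minus caudal differences were 0.43 ± 0.07 and -0.35 ± 0.07, and neither passed (limma adjusted p = 0.445 and 0.413).

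**Figure D5:**
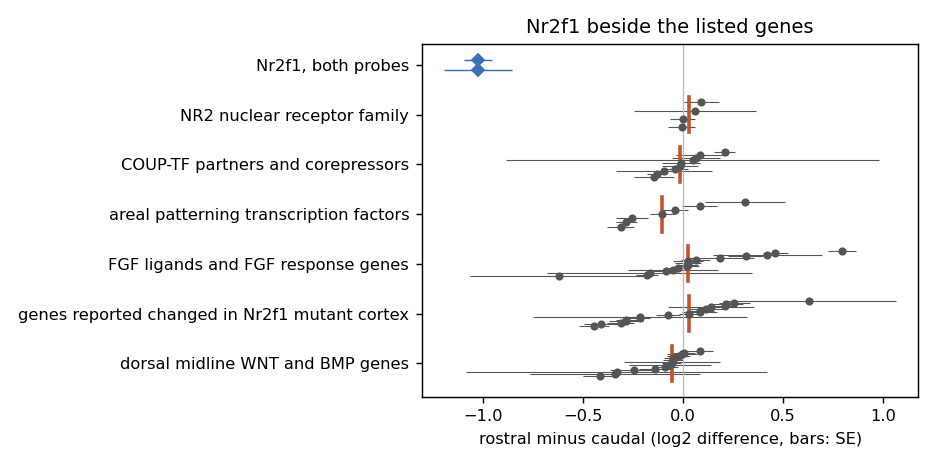
Rostral minus caudal differences (log2, bars 1 SE) of both Nr2f1 probes (diamonds, top) and of the measured members of 6 gene lists (points), with each list's median as a red line. Nr2f1 lies at -1.02 with both probes, below each point of these lists, whose medians run from -0.10 to 0.03.

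Markers of the cell types that the dissected tissue can hold were set beside the gradient. Radial glia, the progenitors, had a median of 0.05 over 16 genes, 4 below 0, and Vim, their intermediate filament gene, passed (-0.51 ± 0.05, limma adjusted p = 0.0389). It was the only 1 of the 16 to pass, against 0.0648% of all features, and 3 had an unadjusted p under 0.05 (7.90% of all features). The call of Vim was among the 12 lost in the alternatives named for Nr2f1. Slc1a3, a glutamate transporter gene of radial glia, was at 0.32 ± 0.05. Intermediate progenitor genes had a median of 0.08 over 12 genes and cortical neuron genes of -0.08 over 15, with 0 passing limma's test in either (5 and 6 at an unadjusted p under 0.05, against 7.90% of all features). Meningeal genes were below 0 for 13 of 15, against 49.6% of all features, with a median of -0.09, and 0 passed limma's test (5 at an unadjusted p under 0.05, against 7.90% of all features). Their pool medians lay between -0.13 and 0.02 in rostral and between -0.01 and 0.12 in caudal pools, and Ptgds, Dcn and Cxcl12 were at -0.66 ± 0.13, -0.39 ± 0.09 and -0.27 ± 0.07. Choroid plexus genes were below 0 for 1 of 5 and diencephalic genes for 2 of 7. Ventral telencephalic genes were below 0 for 6 of 15 with a median of 0.01, although Gsx2 was at -0.53 ± 0.12, and Cajal-Retzius genes for 5 of 9, with Reln at -0.36 ± 0.08 and at -0.04 ± 0.10 with another probe. The part of these tissues in the gradient of Nr2f1 was not tested, and with ratios only, no level can be given for them. Gapdh control spots were at -0.15 to -0.04 in rostral, 0.07 to 0.09 in middle and -0.14 to 0.15 in caudal pools. Their rostral pools thus all lay below their middle pools, as with probe 1 of Nr2f1. All lay closer to 0 than the rostral and caudal pools of Nr2f1, though only just for R1 with probe 2 (-0.17). This did not hold for the middle pools of Nr2f1 (0.04 to 0.13 with probe 1).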

How the data were processed

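The data were 18 arrays with 2 dyes, deposited by the authors as log2 ratios, 1 per probe and array. The base follows from a common ceiling of 16.61, which is log2 of 100000. How the ratios were made, and their direction, is not given in the sources used here. The files hold no intensities, so differences but no levels are reported, and the number of arrays limits the precision. Each array was centred on its median (between -0.09 and 0.61). The 1477 capped ratios were set to missing, and 232 Gapdh control spots were left out. Features measured on at least 12 arrays, with no pool on fewer than 2, were tested (18525).

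Pool values were least squares estimates with a dye coefficient. In R 4.3.3, limma 3.58.1 (lmFit, eBayes) modelled these 9 values by region (6 residual and 1.26 prior degrees of freedom). The Benjamini-Hochberg adjustment ran over all features, and those under 0.05 are said to pass. The procedure was tested on simulated data: with 100 features shifted by 1.0 and 100 by 0.5 on the log2 scale between rostral and caudal among 18525, it called 49 and 22 of them, and 1 unshifted feature. There, pool deviations were independent normal values with a fraction of the observed SD between pools, and array noise was added. These counts describe that setting, which may differ from the real pools. Exact permutation tests over pools were two-sided. Same-numbered pools of different regions deviated with correlations between -0.43 and -0.06 across features. Such pools never shared an array, and the array layout itself shapes these correlations, so they cannot show whether the pools shared embryos. As the labels give no pairing, the pool number was used as a block only in an alternative.

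Named genes are both Nr2f1 probes, the 8 most like and the 8 most opposite, passing members and up to 4 others of lowest F test p in each list, a fixed set of areal genes and the 5 reference genes on either side. The feature with values on most arrays stood for a gene. The members, lists and tests were chosen with earlier results of these data known. Centring, scaling, capped ratios, the array filter, the dye coefficient, the array as sample, blocks, Gapdh spots as a covariate, and each pool and array left out were tried as alternatives.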

Additional observations from a re-analysis of the deposited data

How the results depend on the processing

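In all alternatives run, both probes kept the direction of all 3 differences, and 0 values reversed. The order over regions was run under 4 of them (no centring, scaling, capped ratios kept and no dye coefficient) and kept its direction and p-value. The call of probe 1 for rostral minus caudal did not hold in all. It gave -1.10 without centring (limma adjusted p = 0.0587), -0.98 with the Gapdh spots as a covariate (0.0620), and -1.02 with the pool number as a replicate block (0.164) or with the sets of pools joined by arrays as a block, in either division (0.161 and 0.160). A block takes residual degrees of freedom. With each of the 18 arrays left out the call held in 18 of 18, and with each of the 9 pools left out in 1 of 9, without middle replicate 1. Over all of these the value lay between -1.07 and -0.97, and the adjusted p with a pool left out lay between 0.0173 and 0.211. With the array as the sample, which makes p-values too small, rostral minus middle (-0.63) and middle minus caudal (-0.39) of probe 1 and rostral minus caudal of probe 2 (-1.02) also passed (limma adjusted p = 2.33e-05, 0.00103 and 0.00158).

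The count of features passing for rostral minus caudal was 12 as reported. It was 0 without centring, with the Gapdh covariate and with each of the 3 blocks, 46 among features on all 18 arrays and 1325 with the array as the sample. It was between 0 and 17 with a pool or array left out, 4 without middle replicate 1 and 0 without any other pool, and 2 without array 13, 6 without array 14 and 7 without array 5, 11 or 16. The cause of these shifts was not tested, except that a pool left out removes its 4 arrays. Of the 16 like and opposite genes, 6 were named again without the minimum difference, 12 with probe 1 alone and 7 with probe 2 alone. The residual SD between arrays was 0.626 for probe 2 and 0.196 for probe 1.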
